A study of Mus musculus with 13 samples.

Results

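Glycine receptor subunits and the scaffold protein that holds them at inhibitory synapses were followed in laser-captured spinal motoneurons of mice that carry the SOD1-G93A transgene, a mutant human SOD1 used as a model of amyotrophic lateral sclerosis. The 5 genes Glra1, Glra2, Glra3, Glrb and Gphn were found by their GENCODE mouse names among 48709 gene rows, and all 5 were present. Of these, 4 passed the filter on low counts and were tested with 17403 genes in all; Glra3 did not pass. The 13 RNA-seq libraries came from 13 mice killed at 65 days of age, each a pool of 500 motoneurons cut from cresyl violet-stained lumbar cord. The AAV-miR SOD1 group (n = 4) received, by injection into the cerebral ventricles on postnatal day 2, an adeno-associated virus from which astrocytes express an artificial microRNA against human SOD1. The AAV-miR ctrl group (n = 5) received the control vector by the same route. The Non-injected group (n = 4) were littermates left uninjected. The transgene was present in all 13 mice, so healthy motoneurons are not part of the comparison, and the labels place the microRNA in astrocytes, which are not the captured cells. The labels name no promoter for the vector.

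Glycine receptors are chloride channels made of α and β subunits that open when glycine is bound, and they carry much of the fast inhibition that spinal interneurons such as Renshaw cells exert on motoneurons. The β subunit, encoded by Glrb, binds gephyrin, encoded by Gphn, a scaffold that clusters glycine receptors and some GABA-A receptors under the inhibitory terminal. In the spinal cord the α2 subunit (Glra2) predominates before birth and is largely replaced by α1 (Glra1) as the animal matures, while α3 (Glra3) is known from the superficial dorsal horn.

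On GRCm38, in the GENCODE M21 annotation, Glra1 (ENSMUSG00000000263) lies on chromosome 11 from 55514238 to 55608198, minus strand. Glra2 (ENSMUSG00000018589) lies on chromosome X from 165129017 to 165327393, minus strand. Glra3 (ENSMUSG00000038257) lies on chromosome 8 from 55940460 to 56130070, plus strand. Glrb (ENSMUSG00000028020) lies on chromosome 3 from 80843599 to 80913660, minus strand, and Gphn (ENSMUSG00000047454) on chromosome 12 from 78226379 to 78684772, plus strand. Counts were taken over exons of whole genes, so transcript forms were not separated. An antisense gene, Gm12236, overlaps 141 bases of Glra1 exon and had a median count of 0. Gm48226, a noncoding gene on the opposite strand, overlaps 147 bases of Gphn exon and was not among the counted gene rows. The 5 genes shared no 50-base sequence word with each other, and at most 3.74% of the words of any of them (Glra1) occurred in another gene.

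The sequences around the start sites of Glrb and Gphn are shown because the levels of these genes were the most correlated across libraries among the 4 tested genes, and that of Glra2 as a contrast of low level. Each is the 300-base RefSeq window on GRCm38.p6 around the start that RefSeq annotates, which need not be the GENCODE gene start given above (the Gphn window begins downstream of it), written 5′ to 3′ on the gene's strand. Capitals mark matches to GGGCGG, the letters of a GC box, or to TATAAA, the letters of a TATA box, on either strand; no match overlapped another. The window of Glrb is chr3:80913611-80913910, that of Gphn chr12:78226405-78226704 and that of Glra2 chrX:165327344-165327643.
Glrb: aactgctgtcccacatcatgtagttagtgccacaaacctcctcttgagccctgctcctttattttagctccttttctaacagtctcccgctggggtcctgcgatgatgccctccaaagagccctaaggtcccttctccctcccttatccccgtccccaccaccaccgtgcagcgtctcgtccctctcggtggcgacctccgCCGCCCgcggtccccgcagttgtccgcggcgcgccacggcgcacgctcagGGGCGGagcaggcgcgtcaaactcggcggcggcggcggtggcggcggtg
Gphn: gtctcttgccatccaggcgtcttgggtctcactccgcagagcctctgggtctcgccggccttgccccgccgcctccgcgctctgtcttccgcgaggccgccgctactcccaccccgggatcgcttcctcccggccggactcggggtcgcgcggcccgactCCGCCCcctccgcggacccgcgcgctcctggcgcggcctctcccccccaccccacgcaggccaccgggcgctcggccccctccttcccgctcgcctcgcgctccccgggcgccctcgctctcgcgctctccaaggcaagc
Glra2: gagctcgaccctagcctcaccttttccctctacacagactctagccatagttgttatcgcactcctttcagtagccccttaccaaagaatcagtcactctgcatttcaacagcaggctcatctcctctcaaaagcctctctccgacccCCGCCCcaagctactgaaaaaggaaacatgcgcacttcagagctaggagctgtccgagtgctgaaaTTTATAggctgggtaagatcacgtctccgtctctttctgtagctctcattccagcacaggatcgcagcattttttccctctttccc
The Glrb and Gphn windows were rich in G and C, at 65.7% and 77% against a median of 52.7% over 32851 promoter windows, and held 30 and 42 CpG dinucleotides. Neither held TATAAA. The Glra2 window had 50.3% G and C, 9 CpG dinucleotides and 1 TATAAA match on the reverse strand. A GGGCGG match occurred in 35.7% of all windows and in each of these 3, with 2 matches at Glrb, 1 at Gphn and 1 at Glra2. A TATAAA match occurred in 13.6% of all windows. These matches describe the letters in the windows and say nothing of a factor bound there.

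Levels are given in CPM, a gene's counts scaled to a common depth of all libraries, after TMM scaling, which also corrects for differences in library composition. Depth ran from 13.9 to 37.4 megacounts per library, and 3 counts corresponded to between 0.0749 and 0.225 CPM. The 4 libraries numbered 5 or 6 in their titles were the deepest, and all 4 were controls; the labels do not say what the numbers stand for. The column headers of Non-injected replicate 3 and AAV-miR ctrl replicate 3 contradicted their labels, and the labels were followed. The motoneuron markers Chat, Slc5a7, Slc18a3, Isl1, Mnx1 and Prph were detected in every library. Their summed level was 523 to 1025 CPM in AAV-miR SOD1, 732 to 2262 in AAV-miR ctrl and 905 to 2319 in Non-injected libraries. Markers of blood and marrow cells were also high: 5 erythroid genes summed to between 3470 and 46068 CPM and 5 neutrophil genes to between 8688 and 72004 CPM over the 13 libraries.

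Per kilobase of annotated exon, Glrb and Glra1 were the highest of the 5 genes, Gphn was lower, and Glra2 and Glra3 were near the detection limit. The mean over all 13 libraries was 38.6 ± 13.3 CPM per kilobase (SD, n = 13) for Glrb, 33.5 ± 10.9 for Glra1 and 11.3 ± 2.79 for Gphn. The ranges of Glrb (22.0 to 67.6) and Glra1 (21.2 to 58.7) overlapped, so their order was not resolved. Gphn (7.45 to 16.2) lay below the lowest value of both. With the longest annotated transcript in place of all exons, the mean of Glrb became 59.4 CPM per kilobase and that of Glra1 33.8.

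**Figure D1:**
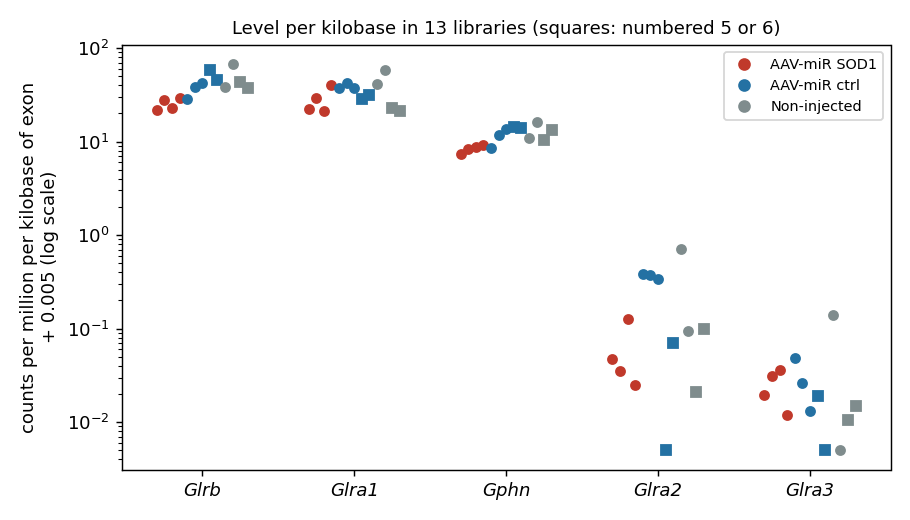
Level of each of the 5 genes in each of the 13 libraries, in CPM per kilobase of exon plus 0.005, on a log axis, coloured by group, with squares for libraries numbered 5 or 6. Glrb and Glra1 overlap and lie between 21.2 and 67.6, Gphn lies at 7.45 to 16.2, and Glra2 and Glra3 stay below 1.

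Among the α subunits, nearly all of the message was Glra1, the adult form. Its share of the summed level per kilobase of Glra1, Glra2 and Glra3 was between 98.0% and 99.9% in the 13 libraries. Glra2 made up at most 1.68% of that sum and Glra3 at most 0.323%. Glra4, the remaining mouse α gene, had 0 counts in 11 libraries, 3 counts in Non-injected replicate 5 and 1 in Non-injected replicate 6.

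Glrb, the subunit that ties the receptor to gephyrin, was lower in the AAV-miR SOD1 libraries. AAV-miR SOD1 replicates 1 to 4 had 102, 129, 107 and 137 CPM. AAV-miR ctrl replicates 1, 3, 4, 5 and 6 had 134, 179, 195, 270 and 213 CPM, and Non-injected replicates 2, 3, 5 and 6 had 180, 315, 201 and 175 CPM. All 4 AAV-miR SOD1 libraries lay below every Non-injected library, and 3 of the 4 lay below every AAV-miR ctrl library, the exception being replicate 4, which was just above AAV-miR ctrl replicate 1. Group means were 119 ± 16.7 CPM (SD, n = 4), 198 ± 49.9 (SD, n = 5) and 218 ± 65.8 (SD, n = 4).

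In edgeR's quasi-likelihood test, Glrb in AAV-miR SOD1 differed from AAV-miR ctrl by a log2 fold change of -0.74 ± 0.24 (SE; unadjusted p = 0.0075, adjusted p = 0.260). From Non-injected it differed by -0.87 ± 0.25 (SE; edgeR unadjusted p = 0.00338, adjusted p = 0.140). Relative to both control groups the value was -0.81 ± 0.22 (SE), 57.2% of the control level (edgeR unadjusted p = 0.00238, adjusted p = 0.0960). None of these passed the threshold of 0.05 after adjustment over all 17403 genes. The adjusted p against both control groups became 0.0274 when AAV-miR ctrl replicate 1 was left out of the edgeR fit, in which 1694 genes passed, and 0.0160 with DESeq2. The 3 comparisons share libraries and are not independent of each other. In bulk samples of captured cells, fewer cells of a type and less RNA per cell cannot be told apart.

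Gphn, the scaffold itself and also an enzyme of molybdenum cofactor synthesis, had its lowest group mean in AAV-miR SOD1 as well. The AAV-miR SOD1 libraries had 27.9, 31.3, 32.6 and 34.5 CPM. The AAV-miR ctrl libraries had 31.9, 43.9, 51.1, 53.8 and 51.9 CPM, and the Non-injected libraries 40.5, 60.8, 38.9 and 50.1 CPM. The AAV-miR SOD1 libraries were all below the Non-injected ones, and AAV-miR ctrl replicate 1 was the control library that fell among them. Means were 31.6 ± 2.78 CPM (SD, n = 4), 46.5 ± 9.0 (SD, n = 5) and 47.6 ± 10.1 (SD, n = 4).

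In edgeR, Gphn differed from AAV-miR ctrl by -0.56 ± 0.20 (log2 fold change, SE; unadjusted p = 0.0130, adjusted p = 0.277) and from Non-injected by -0.59 ± 0.21 (unadjusted p = 0.0124, adjusted p = 0.150). Relative to both control groups the value was -0.57 ± 0.18, 67.2% of the control level (edgeR unadjusted p = 0.0064, adjusted p = 0.107). No Gphn comparison passed the adjusted threshold in this fit. With the 2 libraries of contradicted headers left out, the edgeR value from Non-injected was -0.38 ± 0.21 for Gphn (unadjusted p = 0.100) and -0.57 ± 0.23 for Glrb (unadjusted p = 0.0302). With the 2 exchanged it was -0.46 ± 0.20 for Gphn and -0.63 ± 0.23 for Glrb (edgeR unadjusted p = 0.0353 and 0.0178). Leaving out AAV-miR ctrl replicate 1 gave an edgeR adjusted p of 0.0308 against both control groups, and DESeq2 gave 0.0435.

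**Figure D2:**
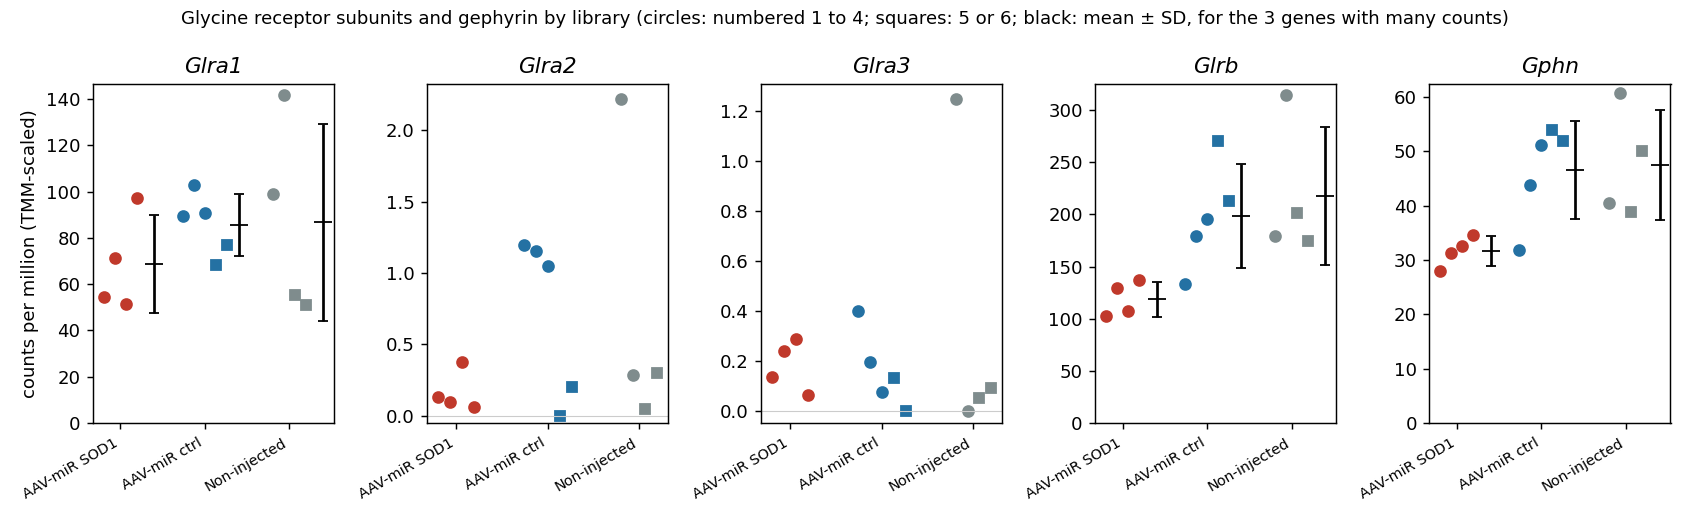
Level of each gene in CPM after TMM scaling, with 1 point per library, circles for libraries numbered 1 to 4 and squares for 5 or 6; black bars are group means ± SD, drawn for Glra1, Glrb and Gphn. The 4 AAV-miR SOD1 libraries reach at most 137 for Glrb and 34.5 for Gphn, below every Non-injected library, while the groups overlap for Glra1, Glra2 and Glra3.

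Glra1, the adult ligand-binding subunit, did not separate the groups. The AAV-miR SOD1 libraries had 54.3, 71.4, 51.6 and 97.4 CPM. The AAV-miR ctrl libraries had 89.6, 103, 90.7, 68.4 and 76.7 CPM, and the Non-injected libraries 99.0, 142, 55.3 and 51.2 CPM. The lowest value of all was Non-injected replicate 6, and AAV-miR SOD1 replicate 4 lay above 6 of the 9 controls. For Glra1 edgeR gave a log2 fold change from AAV-miR ctrl of -0.32 ± 0.30 (SE; adjusted p = 0.649), from Non-injected of -0.34 ± 0.31 (adjusted p = 0.571) and from both of -0.33 ± 0.27 (adjusted p = 0.511). Without Non-injected replicate 3 the value against Non-injected was 0.00024. With both libraries of contradicted headers left out it was 0.068, from AAV-miR ctrl -0.19 and from both control groups -0.063.

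Within the controls, Glra1 differed by library number. The 4 control libraries numbered 5 or 6 had 51.2 to 76.7 CPM, below all 5 control libraries numbered 1 to 4, which had 89.6 to 142 CPM. The share of all tested genes that split by library number was not counted, so this need not be particular to Glra1. Among libraries numbered 1 to 4, the controls were AAV-miR ctrl replicates 1, 3 and 4 and Non-injected replicates 2 and 3. Both libraries of contradicted headers were among them. In this subset alone, Glra1 in AAV-miR SOD1 differed in edgeR by -0.45 ± 0.26 (log2 fold change, SE) from AAV-miR ctrl (adjusted p = 0.894). From Non-injected Glra1 differed by -0.79 ± 0.29 (edgeR adjusted p = 0.291). From both control groups it differed by -0.62 ± 0.23 (edgeR unadjusted p = 0.0240, adjusted p = 0.324). For Glrb and Gphn the corresponding values against both control groups were -0.77 ± 0.23 (SE) and -0.54 ± 0.21 (SE), with edgeR unadjusted p values of 0.00667 and 0.0258. In these libraries the value against AAV-miR ctrl alone was -0.50 ± 0.25 (SE) for Glrb and -0.41 ± 0.23 (SE) for Gphn, with edgeR unadjusted p values of 0.0734 and 0.103. Libraries numbered 5 or 6 hold controls only, so a comparison with AAV-miR SOD1 within them could not be made.

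Glra2, the subunit that predominates before birth, had between 0 and 48 counts per library. The AAV-miR SOD1 libraries held 3, 2, 8 and 1. AAV-miR ctrl libraries had 27, 24, 14, 0 and 6 counts, and Non-injected libraries 48, 5, 2 and 10 counts. The highest values were in controls numbered 1 to 4, but low values occurred in every group and the groups overlapped in each comparison. Glra2 passed the filter on low counts only through AAV-miR ctrl replicates 1, 3 and 4 and Non-injected replicate 2, at 1.05 to 2.21 CPM. The AAV-miR SOD1 libraries had 0.063 to 0.38 CPM. That Glra2 was tested at all thus depended on high control values, so its fold changes are descriptions only. The edgeR log2 fold change from both control groups was -2.02 ± 1.15 (SE; unadjusted p = 0.0999, adjusted p = 0.322). From AAV-miR ctrl it was -2.02 ± 1.22 and from Non-injected -2.01 ± 1.25, with edgeR adjusted p values of 0.455 and 0.378. These fits rest on 14 counts in all in the AAV-miR SOD1 group, 71 in AAV-miR ctrl and 65 in Non-injected, and 48 of the last came from Non-injected replicate 2. Without that library the edgeR value from Non-injected was -0.20 ± 1.24 (unadjusted p = 0.872) and from both control groups -1.09 ± 1.03. With all 13 libraries, limma-voom gave -0.70 from Non-injected, -0.90 from both and -1.11 from AAV-miR ctrl. Among libraries numbered 1 to 4 the edgeR value was -2.69 ± 0.84 from AAV-miR ctrl, -2.83 ± 0.89 from Non-injected and -2.76 ± 0.79 from both. The edgeR unadjusted p values were 0.00913, 0.00999 and 0.00555, and the adjusted ones 0.894, 0.290 and 0.322. In this subset the Non-injected group was replicates 2 and 3 only, with 48 and 5 counts, so replicate 2 weighs heavily in it.

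For Glra3, the dorsal horn subunit, AAV-miR SOD1 libraries gave 3, 5, 6 and 1 counts. There were 9, 4, 1, 5 and 0 counts in the AAV-miR ctrl libraries and 27, 0, 2 and 3 in the Non-injected ones. Of the 32 Non-injected counts, 27 came from replicate 2, which also had the highest Glra2 count. The two-sided exact permutation test of the difference of mean log2 CPM gave 0.27 against AAV-miR ctrl (p = 0.651), 0.15 against Non-injected (exact permutation p = 0.914) and 0.21 against both control groups (exact permutation p = 0.724). A difference was not detectable at this depth.

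The control groups were compared with each other to ask what injection and vector did. The edgeR log2 fold change of AAV-miR ctrl against Non-injected was -0.019 ± 0.30 (SE) for Glra1, 0.010 ± 1.11 for Glra2, -0.13 ± 0.23 for Glrb and -0.032 ± 0.19 for Gphn. Every one of these was smaller than its standard error, and each changed sign under at least 1 alternative setting. The edgeR adjusted p was 1.00 for each of the 4. For Glra3 the difference of mean log2 CPM was -0.12 (exact permutation p = 0.889).

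Counted over the 4 tested genes, 0 had an edgeR adjusted p under 0.05 in any of the 4 comparisons, as was so for 0% of all genes. At an unadjusted p under 0.05, 2 of the 4, Glrb and Gphn, were lower in AAV-miR SOD1 than in AAV-miR ctrl, where 8.54% of all tested genes were. The same 2 genes were lower against Non-injected, where 11.5% of tested genes were, and against both control groups, where 12.1% were. In AAV-miR ctrl against Non-injected, 0 of 4 were lower at this level, beside 2.24% of tested genes. In the same 4 comparisons 0 of 4 were higher, beside 5.99%, 9.36%, 10.2% and, between the controls, 1.38% of tested genes. Without overlap between groups, the same 2 were lower against Non-injected, beside 5.81% of tested genes, and 0 of 4 against AAV-miR ctrl (2.46%) or both control groups (1.23%), or between the controls (0.517%). The median log2 fold change of the 4 was -0.65 against AAV-miR ctrl, -0.73 against Non-injected and -0.69 against both, where the medians of all tested genes were -0.045, -0.086 and -0.059. The 4 include Glra2, which passed the filter only through control libraries, so these medians are descriptions only. With DESeq2, 173, 996, 2 and 1480 genes passed an adjusted p of 0.05 in the comparisons with AAV-miR ctrl, with Non-injected, between the controls and with both control groups. At an unadjusted p under 0.05, edgeR gave 2529, 3635, 629 and 3870 genes in the same order.

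**Figure D3:**
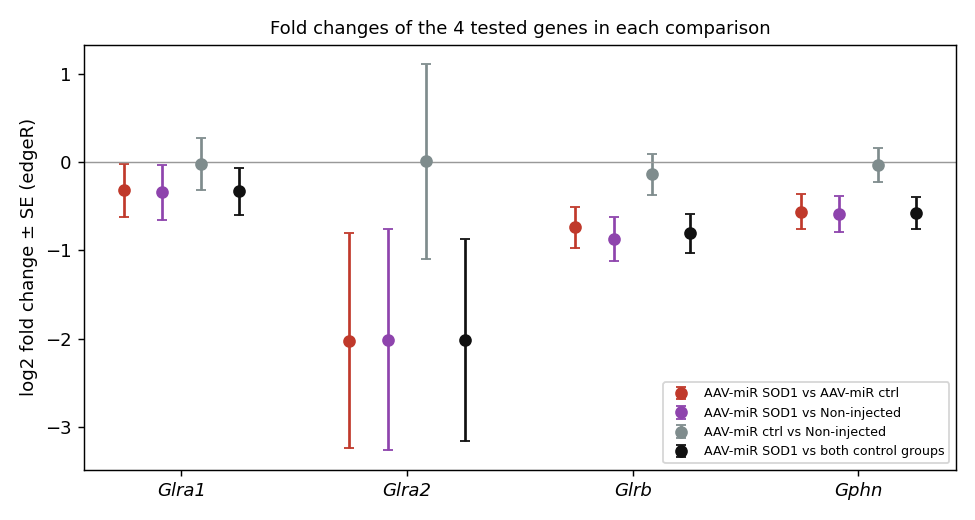
The edgeR log2 fold change of each tested gene in the 4 comparisons, with bars of 1 SE. Glrb (-0.74, -0.87 and -0.81) and Gphn (-0.56, -0.59 and -0.57) lie below 0 by more than 1 SE in the 3 comparisons with AAV-miR SOD1 and near 0 between the control groups, while the bars of Glra2 are the widest.

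Across the 13 libraries, Glrb and Gphn varied together, and Glra1 varied apart from them. On log2 CPM, Pearson's r between Glrb and Gphn was 0.92 and Spearman's rho 0.91 over 13 libraries, and r was 0.82 after each group's mean had been subtracted. Between Glra1 and Glrb r was 0.47, and between Glra1 and Gphn 0.38. Glrb had r = 0.95 and Gphn r = 0.86 with Chat, the acetylcholine-synthesizing enzyme that marks motoneurons, and Glra1 had r = 0.41. These correlations are descriptions of libraries that share their scaling, and depth and library number move with them.

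The ratio of counts within a library, which does not depend on scaling, also set Glra1 apart from Glrb. Glra1 to Glrb was 0.530, 0.553, 0.482 and 0.712 in AAV-miR SOD1 libraries. It was 0.670, 0.574, 0.464, 0.253 and 0.360 in AAV-miR ctrl and 0.551, 0.450, 0.274 and 0.293 in Non-injected libraries. The 4 libraries numbered 5 or 6 had the lowest ratios, at 0.253 to 0.360, without overlap with the 9 numbered 1 to 4, at 0.450 to 0.712. How often ratios of other genes split in this way was not counted. The 5 controls numbered 1 to 4, at 0.450 to 0.670, overlapped the AAV-miR SOD1 libraries, at 0.482 to 0.712. Gphn to Glrb stayed between 0.193 and 0.305 in all 13 libraries, and the groups overlapped.

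**Figure D4:**
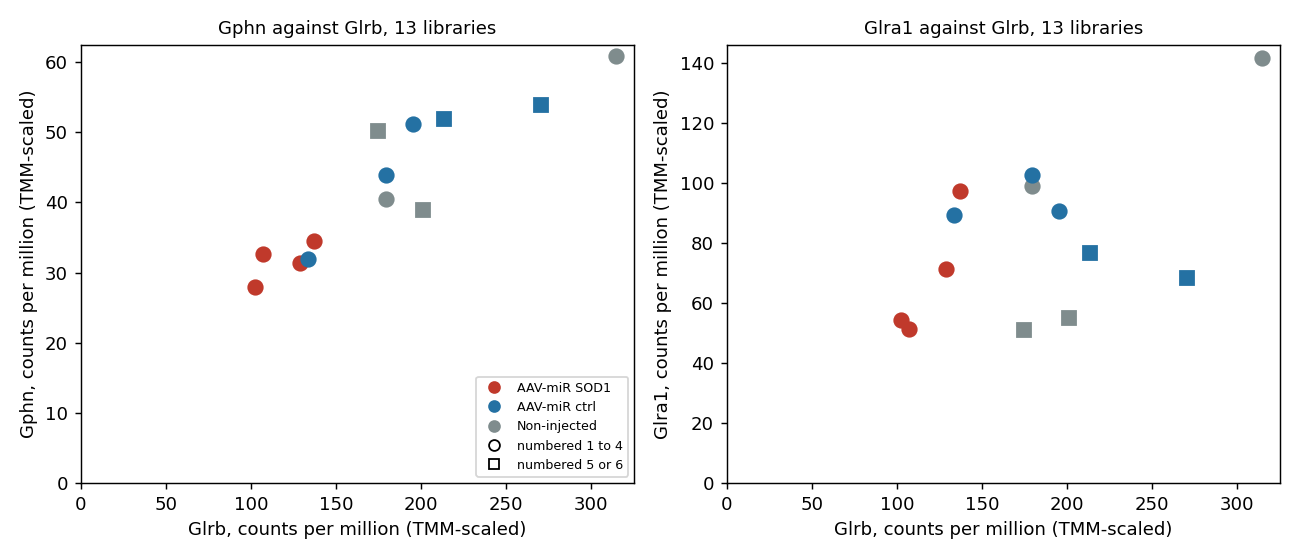
Gphn (left) and Glra1 (right) against Glrb, all in CPM after TMM scaling, with 1 point per library, coloured by group and with squares for libraries numbered 5 or 6. Gphn and Glrb lie along 1 line (r = 0.92 on log2 values), whereas in the right panel the 4 squares have Glra1 at 51.2 to 76.7 and the other 5 controls at 89.6 to 142.

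Because Glrb and Gphn followed Chat, their levels were also set against it, a ratio chosen after the values had been seen. Chat itself was lower without overlap, at 39.1 to 66.8 CPM in AAV-miR SOD1, 73.8 to 131 in AAV-miR ctrl and 82.9 to 155 in Non-injected libraries. Glrb to Chat was 1.93 to 2.74 in AAV-miR SOD1, 1.77 to 2.43 in AAV-miR ctrl and 1.74 to 2.17 in Non-injected libraries, so the groups overlapped and the AAV-miR SOD1 libraries were not the lowest. Gphn to Chat was 0.469 to 0.834, 0.412 to 0.595 and 0.392 to 0.499 in the same order. Glra1 to Chat was 0.510 to 0.637 in the libraries numbered 5 or 6 and 0.914 to 1.48 in the others.

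No marker gene passed the adjusted threshold in edgeR in any comparison. At an unadjusted p under 0.05, 5 of 6 motoneuron markers were lower against AAV-miR ctrl, 6 of 6 against Non-injected and 6 of 6 against both control groups, beside 8.54%, 11.5% and 12.1% of all tested genes, and 0 were higher. Their summed levels, given above, overlapped between the groups, but some of the markers did not. Chat and Slc5a7 were lower without overlap against AAV-miR ctrl and against both control groups, as were 2.46% and 1.23% of tested genes. Against Non-injected 3 of the 6 were, beside 5.81%. Of the 5 erythroid genes, all 5 were higher at an unadjusted p under 0.05 in each of these comparisons, beside 5.99%, 9.36% and 10.2% of all tested genes. Their summed levels were 20633 to 46068 CPM in AAV-miR SOD1, 3470 to 27756 in AAV-miR ctrl and 5444 to 19864 in Non-injected libraries. Of the 5 neutrophil genes, 4 were higher against Non-injected and against both control groups and 0 against AAV-miR ctrl, with sums of 26887 to 72004, 8688 to 62297 and 12442 to 21712 CPM. By library number, the median sum was 20633 CPM (erythroid), 26887 (neutrophil) and 905 (motoneuron) in libraries numbered 1 to 4, and 6703, 12329 and 1888 in those numbered 5 or 6, which are all controls. Among 6 microglia genes, 3 were higher and 0 lower against both control groups, and among 5 B lineage genes 2 were higher. Of 6 astrocyte genes 1, Aldoc, was lower at that level, at -0.96 ± 0.24 (SE; edgeR adjusted p = 0.0960), and the astrocyte sums were 434 to 563 CPM in AAV-miR SOD1, 560 to 988 in AAV-miR ctrl and 516 to 763 in Non-injected libraries. Of 5 oligodendrocyte and 4 endothelial genes, 0 had an unadjusted p under 0.05; the oligodendrocyte values ran from -0.66 to -0.41. The part of these markers in the lower Glrb and Gphn levels was not tested.

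Markers of neighbouring inhibitory neurons were examined too. Of 6 inhibitory interneuron genes, 5 passed the filter and 0 had an unadjusted p under 0.05 in any comparison. Of all tested genes, 14.5% did against AAV-miR ctrl, 20.9% against Non-injected, 22.2% against both and 3.61% between the controls. With only 5 genes, a count of 0 is close to these shares and does not show that the levels were unchanged. Their summed level was 8.39 to 27.5 CPM in AAV-miR SOD1, 14.3 to 28.9 in AAV-miR ctrl and 11.6 to 23.2 in Non-injected libraries. Gad2 and Pax2 of this list had 0 counts in at least 1 library, as had Lmx1b, a marker of excitatory interneurons.

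The rest of the glycinergic synapse was described with 60 listed genes, of which 58 were tested; Gldc and Glra4 did not pass the filter. None passed an adjusted p of 0.05. At an unadjusted p under 0.05, 14 of 58 (24.1%) were lower and 4 higher in AAV-miR SOD1 than in both control groups, beside 12.1% lower and 10.2% higher of all tested genes. Against AAV-miR ctrl 9 (15.5%) were lower and 1 (1.72%) higher, beside 8.54% and 5.99% of all tested genes. Against Non-injected 14 (24.1%) were lower and 3 (5.17%) higher, beside 11.5% and 9.36%. The median log2 fold change of the 58 against both control groups was -0.26.

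Genes of the presynaptic terminal and of glycine supply held 1 of the 14 lower genes. Of 5 genes of glycinergic and GABAergic terminals, 0 had an unadjusted p under 0.05 against both control groups, beside 22.2% of all tested genes. Slc6a5, the neuronal glycine transporter GlyT2, was at -0.25 ± 0.31 (SE) on edgeR's log2 scale relative to both control groups, as are the values that follow, with an adjusted p of 0.691. Slc32a1, the vesicular transporter for glycine and GABA, was at -0.0032 ± 0.44 (SE) with an edgeR adjusted p of 0.998, and Gad2, a GABA-synthesizing enzyme, at -0.82 ± 1.09 (SE) with 0.708. Among 8 tested genes of glycine uptake and metabolism 1 was lower, near the 12.1% of all tested genes. It was Gcsh of the glycine cleavage system, at -0.53 ± 0.21 (SE) with an edgeR adjusted p of 0.162. Shmt2, the mitochondrial serine hydroxymethyltransferase, was at 0.42 ± 0.20 (SE), with an edgeR unadjusted p of 0.051.

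Partners of gephyrin, the longest list with 19 of the 58 tested genes, held 7 of the 14 lower genes. Of 19 tested, 7 were lower and 1 higher against both control groups at an unadjusted p under 0.05, beside 12.1% and 10.2% of all tested genes. Their median log2 fold change was -0.62. Among those lower were Iqsec3, Lhfpl4, Pfn2, Kif5a and Kif5c, and the one higher was Vasp, an actin regulator; of these, the genes other than Pfn2 and Kif5a were named after their values were seen. Against AAV-miR ctrl 4 of the 19 were lower and 0 higher, beside 8.54% and 5.99% of all tested genes. The 6 motoneuron markers were lower in the same libraries, as given above, and their part in these counts was not tested. Nlgn2, the adhesion molecule of inhibitory synapses, was at -0.59 ± 0.29 (SE) with an edgeR unadjusted p of 0.058. Kif5a, a kinesin motor that is also abundant in neurons apart from this role, was at -0.83 ± 0.26 (SE) with an edgeR adjusted p of 0.109, and Pfn2, an actin-binding profilin, at -0.77 ± 0.25 (SE) with an adjusted p of 0.117.

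Of 6 genes linked to glycine receptor trafficking, 2 were lower and 1 higher at an unadjusted p under 0.05, beside 12.1% and 10.2% of all tested genes. Pacsin1, also called syndapin I, a membrane-bending protein that binds the β subunit, was at -1.26 ± 0.41 (SE) with an edgeR adjusted p of 0.114. Trak2, a kinesin adaptor, was higher at 0.59 ± 0.21 (SE) with an edgeR adjusted p of 0.128.

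Chloride handling sets whether an open glycine receptor inhibits or excites. Of 10 genes, 3 were lower and 2 higher against both control groups at an unadjusted p under 0.05, beside 12.1% and 10.2% of all tested genes. Slc12a5, the neuronal chloride exporter KCC2, had 72.1 to 118 CPM in AAV-miR SOD1, 99.4 to 193 in AAV-miR ctrl and 107 to 229 in Non-injected libraries. Its edgeR log2 fold change from both control groups was -0.69 ± 0.25 (SE), with an unadjusted p of 0.0138 and an adjusted p of 0.129. Slc12a2, the importer NKCC1, was at -0.059 ± 0.24 (SE), with an edgeR adjusted p of 0.915. Stk39, a kinase that regulates both transporters, was at -0.66 ± 0.18 (SE) with an edgeR adjusted p of 0.0962, and Car7, a neuronal carbonic anhydrase, at -1.07 ± 0.35 (SE) with 0.115.

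Gphn also serves molybdenum cofactor synthesis, and other genes of that route and of the enzymes that use the cofactor were listed as well. Of 10 tested, 1 was lower and 0 higher against both control groups at an unadjusted p under 0.05. The count of lower genes was near the share of all tested genes, 12.1%, and 10.2% of those were higher. The median log2 fold change of the 10 was 0.0089. The lower gene was Mocs2, the molybdopterin synthase gene that acts before gephyrin, at -0.45 ± 0.15 (SE) with an edgeR adjusted p of 0.123. Mocs1, which acts first in the route, was at 0.52 with an edgeR adjusted p of 0.314.

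**Figure D5:**
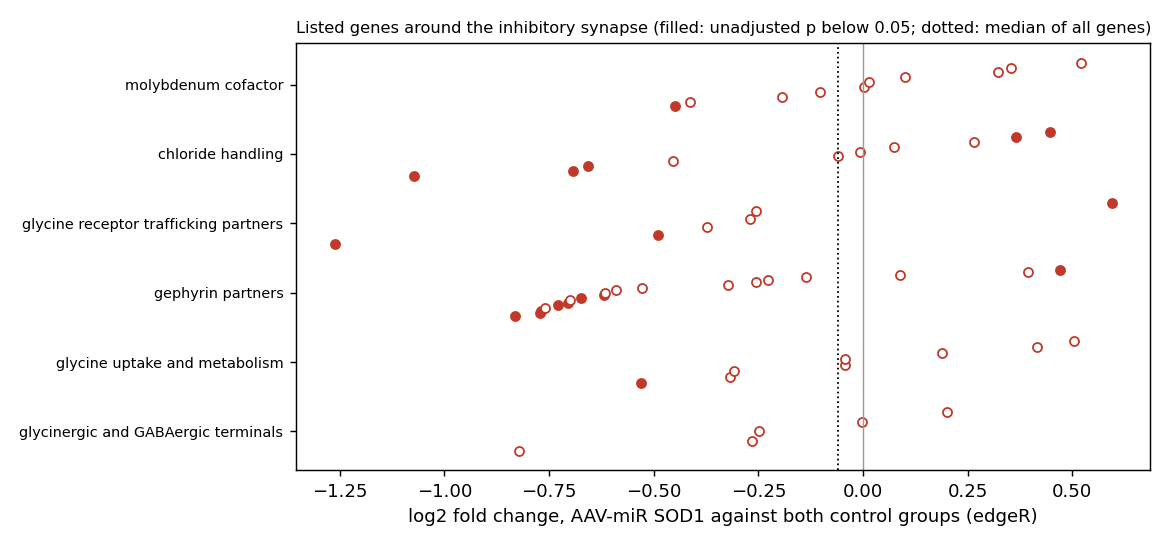
The edgeR log2 fold change of each tested gene of 6 lists in AAV-miR SOD1 against both control groups, 1 point per gene, filled where the unadjusted p is below 0.05; the dotted line is the median of all tested genes (-0.059). The gephyrin partners hold 7 filled points below 0 of 19, the trafficking partners 2 of 6, chloride handling 3 of 10 and the terminal genes 0 of 5. Glycine uptake and metabolism holds 1 of 8 and the molybdenum cofactor list 1 of 10, beside 12.1% of all tested genes.

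The genes whose log2 CPM was most like that of each tested gene over the 13 libraries were taken by Pearson's r among all tested genes. For Glrb they were Tspyl4 (r = 0.989), Gpr22 (r = 0.986) and Kcnab1 (r = 0.979), with Chat 70th and Gphn 242nd of 17402. For Gphn they were Lrrtm2 (r = 0.967), Tom1l2 (r = 0.967) and Serinc1 (r = 0.961). For Glra1 they were Nxpe3 (r = 0.961), Nrxn3 (r = 0.944) and Ryr2 (r = 0.942), with Glrb only at rank 1724. For Glra2 they were 4933404I11Rik (r = 0.903), Kirrel3 (r = 0.887) and Prkaa1 (r = 0.886), on few counts. The leading gene was the same for Glrb after group means had been subtracted and another one for Glra1, Glra2 and Gphn.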

How the data were processed

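Lumbar motoneurons were laser-captured, and RNA was amplified with a SMARTer Ultra Low kit and made into Nextera XT libraries, per the labels' protocols. The authors deposited raw counts per gene for 13 libraries, in whole numbers. The submitters' processing notes name cutadapt 1.8, STAR 2.5.2b, HTSeq 0.6.1 and GRCm38. The annotation release and the strand setting are not given in the sources used here. Each table held 5 summary rows, which were left out of the totals.

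Names came from GENCODE M21, which held 48349 of 48709 identifiers (99.986% of counts). Genes were kept with edgeR's filterByExpr (edgeR 4.0.16, R 4.3.3; minimum count 10, total 15), leaving 17403. Genes were tested by edgeR's quasi-likelihood F test on all 13 libraries with 3 group levels, TMM scaling and Benjamini-Hochberg adjustment over all genes, at a threshold of 0.05. Log2 CPM used a prior count of 2. Glra3, which the filter removed, had an exact permutation test. The p values measure the spread between mice. Levels per kilobase used the union of annotated exons. Precision covers counting and sample spread only.

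Always named were the 5 genes, Slc6a5, Slc32a1, Nlgn2, Slc12a5, Slc12a2, any listed gene past the adjusted threshold, the 2 genes of smallest p in each list of synapse genes and the 3 genes most like each tested gene. Some listed genes are counted but not reported by name here. The genes and lists were chosen with earlier results of these data known. Alternatives were other scalings, filters, DESeq2 1.42.0, limma-voom (limma 3.58.1), fits on fewer libraries, the replicate number as a block, the exchange or omission of the contradicted libraries, and a prior count of 0.5 for Glra3, which was added after seeing the data.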

Additional observations from a re-analysis of the deposited data

Results flagged for a closer look

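The count ratio of Glra3 to Glra1 in Non-injected replicate 2 was 0.0126, far from the other 3 libraries of its group, the nearest of which was at 0.00175. The gap was 0.861 of the group's whole range. This library held 27 of the 32 Glra3 counts of its group. Chance flags about 1 in 20 such groups, and 27 groups of ratios and levels were examined, of which 1 was marked.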

How the results depend on the processing

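Against AAV-miR ctrl, Non-injected and both control groups, Glrb and Gphn were lower in AAV-miR SOD1 under all 24, 24 and 23 alternatives. Their unadjusted p stayed under 0.05 in 23, 24 and 23 of these for Glrb and in 22, 22 and 23 for Gphn. Genes passing the adjusted threshold, 0 in edgeR, were 173 (AAV-miR ctrl), 996 (Non-injected), 2 (between controls) and 1480 (both) with DESeq2. Against both control groups they were 519 with limma-voom, 1 without a filter, and 0 to 1694 leaving out 1 library (121 without AAV-miR SOD1 replicate 3, 1 without replicate 4, 1694 without AAV-miR ctrl replicate 1). DESeq2 put Glrb past the threshold against Non-injected (-0.83, adjusted p = 0.0337) and, with Gphn, against both (-0.77 and -0.54). Limma-voom did so for Glrb against both (-0.73, adjusted p = 0.0497). Leaving out 1 library gave -0.88 to -0.69 for Glrb and -0.63 to -0.51 for Gphn against both, with -0.86 and -0.63 without AAV-miR ctrl replicate 1. The cause of these differences was not tested.

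Correlations of deviations from group means between same-numbered libraries of different groups ran from -0.19 to 0.24. Values for differently numbered libraries are not given beside them, so pairing by replicate number was not settled. With the replicate number as a block, Glrb was at -0.64, -0.72 and -0.68 and Gphn at -0.47 in each of the 3 comparisons with AAV-miR SOD1, and 0 genes passed. In the same order Glra1 was at -0.64, -0.60 and -0.62 (unadjusted p = 0.0532, 0.0842 and 0.0455) and Glra2 at -2.66, -2.92 and -2.79 (unadjusted p = 0.0239, 0.0400 and 0.0180). The block turned AAV-miR ctrl against Non-injected to 0.035 for Glra1 and -0.27 for Glra2.

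Other reversals were of main values from -0.34 to 0.27, and not every reversed value was near 0. Glra1 against Non-injected was 0.068 without the 2 contradicted libraries, and -0.56 to 0.00024 leaving out 1 library. For AAV-miR ctrl against Non-injected, exchanging the 2 contradicted libraries gave 0.28 (Glra1), -0.78 (Glra2), 0.30 (Glrb) and 0.20 (Gphn). Omitting them gave 0.26, -0.49, 0.15 and 0.15. Leaving out 1 library gave ranges of -0.20 to 0.32, -0.38 to 1.78, -0.27 to 0.10 and -0.10 to 0.11. Upper quartile scaling gave 9.64e-05 for Glra1 and 0.0044 for Gphn, limma-voom gave 0.30 and 0.030, and libraries numbered 1 to 4 gave -0.14 for Glra2. Glra3 turned to -0.16 (AAV-miR ctrl), -0.42 (Non-injected) and -0.26 (both) in libraries numbered 1 to 4. Against Non-injected it was -0.29 with the exchange and -0.33 with the omission, and between controls 0.030 with a prior count of 0.5. An edgeR fit without a filter put Glra3 at 0.20, -0.87 and -0.33 against AAV-miR ctrl, Non-injected and both, and at -1.07 between controls. Leaving out 1 library gave Glra3 -0.065 to 0.57, -0.33 to 1.00 and, between controls, -0.60 to 0.74. Glra2 passed the filter in fewer settings than the other tested genes and DESeq2 gave it no adjusted p against AAV-miR SOD1. For Glra2 and Glra3, depth limits what can be seen.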
